A study of Mus musculus with 12 samples.

Results

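Genes of the vascular endothelium were read on 12 Affymetrix 430 2.0 oligonucleotide arrays of differentiating mouse embryonic stem (ES) cells. The set holds 10 genes, *Kdr*, *Flt1*, *Tek*, *Tie1*, *Eng*, *Cdh5*, *Esam*, *Cldn5*, *Pecam1* and *Emcn*, each taken from the probe sets whose annotation gives that symbol alone. They were measured by 15 of the 45037 probe sets tested and are 10 of the 18193 genes with a probe set of their own. *Flt1* has 4 probe sets, *Cdh5* and *Eng* have 2 each and every other member has 1. A gene with several was read from the probe set with the highest mean intensity, and the others are given beside it.

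The study asked which genes differ between telomerase-deficient and wild-type cells as they differentiate. The deficient cells lack *Terc*, the RNA template of telomerase (Terc-/-, called KO here), and are labelled as generation G3/4, a late generation bred without telomerase, whereas the paper's account of its arrays speaks of G4 cells. At day 0 they were undifferentiated ES cells of lines F35 and A49 at passage 11, against wild-type (WT) lines N12 and N33 at passage 12, all of C57BL/6 background. At days 8 and 15 the arrays hold KO and WT cells differentiated as embryoid bodies, which spent 4 days in hanging drops without LIF, the cytokine that keeps mouse ES cells undifferentiated, and then grew attached in wells where several bodies were pooled. Each of the 6 groups has 2 arrays, which the labels call biological replicates. The labels of the later arrays name no line. At day 0 the lines, and with them the generation and passage, differ between the genotypes. At every day the line, the generation and the genotype therefore cannot be told apart.

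Blood vessels arise in embryoid bodies from *Kdr*-positive mesoderm. VEGF acts through *Kdr* to make endothelial cells form and grow, angiopoietins act through *Tek* to settle them into stable tubes, and adhesion molecules such as VE-cadherin then seal the contacts between neighbouring cells. Several of these genes are not exclusive to vessels: *Kdr* also marks early mesoderm, *Flt1* is made by trophoblast and monocytes, *Tek* and *Eng* by early blood progenitors, and *Pecam1* by undifferentiated mouse ES cells.

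Promoter sequences are shown because 7 of the 10 members were lower in KO cells at day 15 and the VEGF receptor *Flt1* was not among them. RefSeq (GRCm38.p6) gave 300 bases around the start site for 7 members, *Kdr*, *Flt1*, *Tek*, *Tie1*, *Eng*, *Cldn5* and *Emcn*. The sequences of both VEGF receptors, of *Tie1* and of *Emcn* run 5′ to 3′ on the gene's strand, from 250 bases before the start to 50 bases after it. Capitals mark matches on either strand to CNGGAAG, a core bound by ETS factors, the family to which the endothelial regulators *Fli1*, *Erg* and *Etv2* belong.
*Kdr*, chr5:75978406-75978705, minus strand: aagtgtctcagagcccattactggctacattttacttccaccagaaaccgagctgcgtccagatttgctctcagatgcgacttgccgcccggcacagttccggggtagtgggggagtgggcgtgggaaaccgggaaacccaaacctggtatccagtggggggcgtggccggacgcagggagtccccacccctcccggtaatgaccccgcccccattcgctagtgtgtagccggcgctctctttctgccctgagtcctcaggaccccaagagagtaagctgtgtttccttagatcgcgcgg
*Flt1*, chr5:147725962-147726261, minus strand: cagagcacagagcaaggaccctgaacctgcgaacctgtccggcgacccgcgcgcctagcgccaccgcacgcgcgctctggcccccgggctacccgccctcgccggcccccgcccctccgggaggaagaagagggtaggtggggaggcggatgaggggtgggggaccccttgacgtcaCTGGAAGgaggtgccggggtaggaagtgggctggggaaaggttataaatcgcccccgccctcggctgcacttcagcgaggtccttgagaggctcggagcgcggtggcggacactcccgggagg
*Tie1*, chr4:118489800-118490099, minus strand: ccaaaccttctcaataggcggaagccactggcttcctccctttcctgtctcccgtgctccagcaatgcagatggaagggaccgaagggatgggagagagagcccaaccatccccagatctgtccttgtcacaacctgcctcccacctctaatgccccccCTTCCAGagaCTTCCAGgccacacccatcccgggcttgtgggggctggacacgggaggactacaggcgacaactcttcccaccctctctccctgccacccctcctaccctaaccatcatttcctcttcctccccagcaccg
*Emcn*, chr3:137340828-137341127, plus strand: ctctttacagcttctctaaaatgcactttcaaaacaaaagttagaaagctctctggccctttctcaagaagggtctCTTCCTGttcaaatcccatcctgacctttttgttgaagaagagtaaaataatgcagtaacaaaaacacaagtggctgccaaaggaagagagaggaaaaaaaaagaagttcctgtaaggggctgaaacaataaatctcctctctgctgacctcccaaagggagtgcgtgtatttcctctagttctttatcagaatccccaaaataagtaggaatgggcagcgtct
The ETS core was found in the promoters of 3 of the 7 members, and in 31.9% of all 32851 mouse promoters in the same table. *Tie1* held it at -91 and -81 bases from the start site, *Flt1* at -73 and *Emcn* at -174. *Kdr*, which was lower in KO cells at day 15, had no match in its window, and *Flt1*, which was not, had 1. AACAGGAA, an ETS core of the kind found joined to forkhead sites, was present in *Emcn* alone, where it overlaps the ETS match, and in 2.65% of all promoters. The core NGATAAG, bound by factors of the Gata family, was present in *Tek* alone and in 7.41% of all promoters. The TATA box TATAAA was present in *Flt1* alone and in 13.6%. A match describes these letters in this window and is not evidence of binding.

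The deposited values are linear intensities on a scale the authors set. The array medians were 113.6 to 117.0 at day 0 and 50.63 to 53.09 at days 8 and 15, so day 0 was scaled apart, and only ranks within an array are set side by side across that gap. Among the groups, the pair of WT arrays at day 8 differed most from each other, with an SD of 0.377 for their log2 difference over all probe sets, against 0.22 to 0.326 in the other groups. In that group replicate 2 was higher than replicate 1 for the embryonic globin *Hbb-bh1*, at 499 and 79.1, and for the collagen *Col1a1*, at 2376 and 568. Differences are log2 KO minus WT, or day 15 minus day 8, from 1 limma fit across all probe sets, with P-values adjusted over all of them by Benjamini-Hochberg and a threshold of 0.05. P-values measure only the spread between these arrays, which may be technical. In such mixed cultures, fewer endothelial cells and less RNA per endothelial cell cannot be told apart. Nor can a change in the other cells that make some of these transcripts.

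At day 15, 7 of the 10 endothelial genes were lower in KO cells than in WT cells and 0 were higher. They were both angiopoietin-axis receptors *Tek* and *Tie1*, the VEGF receptor *Kdr*, the junction genes *Cdh5*, *Cldn5* and *Esam*, and the sialomucin *Emcn*, with WT means between 1.81 and 5.52 times the KO means. Over all 18193 genes, 8.31% were lower and 8.77% were higher by the same test. The median difference of the 10 members was -1.05 on the log2 scale, against 0.04 for all genes. *Flt1*, *Pecam1* and *Eng* did not pass. In its general statistics the paper names ANOVA for multiple groups and a t-test for groups it calls paired, without saying how samples were paired. Its array genes were selected by a fold rule. By an unpaired t-test on the same log2 values, called the methods' t-test here, 5 of the 7 had an unadjusted p under 0.05. Without adjustment 6541 of all 45037 probe sets had a p under 0.05 by that t-test, and after adjustment 0 passed. Both KO arrays lay below both WT arrays for 8 members, the 7 genes and *Pecam1*, and for 25.8% of all genes. They lay above both WT arrays for 1 member, *Flt1*, and for 33.1% of all genes.

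**Figure D1:**
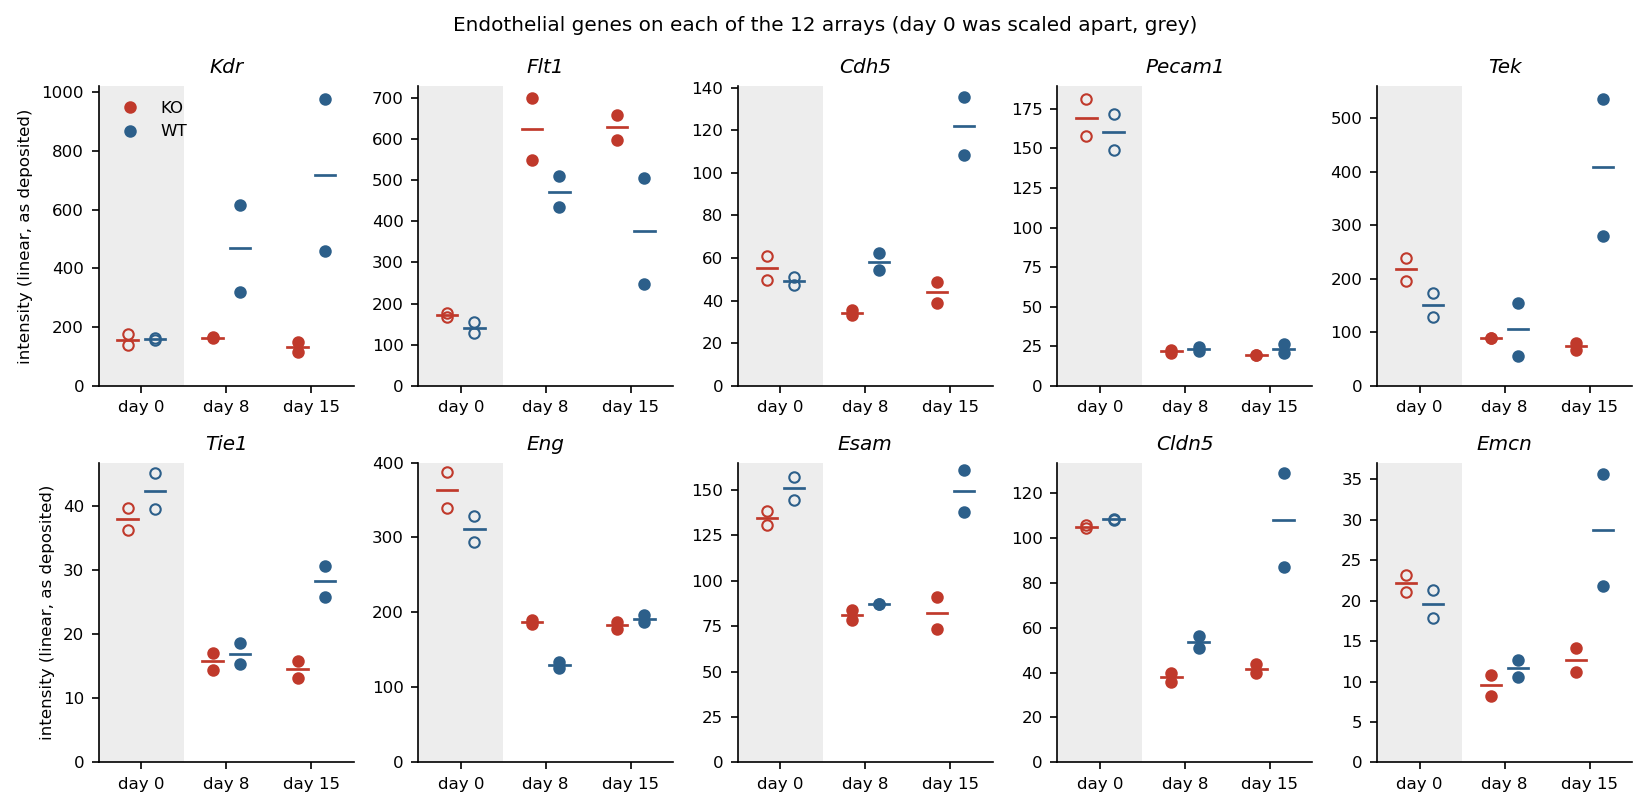
Intensity of each of the 10 endothelial genes on every array (linear axes from 0, 1 panel per gene, brightest probe set), with KO arrays left of WT arrays at days 0, 8 and 15 and group means as lines; day 0, on grey, was scaled apart from the later days. At day 15 the KO points of 8 genes lie below both WT points, as for *Cdh5* at 49.0 and 38.9 in KO cells and 108 and 136 in WT cells.

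Of the VEGF receptors, *Kdr* was lower in KO cells at day 15 and *Flt1* was not. *Kdr* encodes VEGFR2, the main signalling receptor for VEGF. Its intensity at day 15 was 116 and 148 on the KO arrays, against 978 and 460.3 on the WT arrays. Both KO arrays were far below both WT arrays, of which replicate 1 was the higher. The log2 difference was -2.35 (SE 0.36, adjusted p = 0.00299) in limma. At day 8 *Kdr* was already at 165 and 162 in KO cells, against 617 and 319 in WT cells, with the groups apart but a difference of -1.44 (SE 0.36, adjusted p = 0.102) that did not pass limma's threshold. At day 0 the groups overlapped, at 177 and 138 in KO cells and 155 and 162 in WT cells. By rank within an array, the same probe set stood at the percentiles 58.5, 72.4 and 68.5 on average at days 0, 8 and 15 in KO cells, and at 59.7, 85.3 and 90.0 in WT cells. At both later days it stood above its day 0 rank in both genotypes, and higher in WT cells than in KO cells.

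*Flt1* encodes VEGFR1, which binds VEGF tightly and signals weakly, so that it can hold VEGF away from *Kdr*. Its brightest probe set read 659 and 597 in KO cells at day 15, against 247 and 506 in WT cells. Both KO arrays were above both WT arrays, and the lower WT value was that of replicate 1, the WT array with the higher *Kdr*. The difference of 0.83 (SE 0.27, adjusted p = 0.0764) did not pass limma's threshold. It passed without WT replicate 2 of day 15, at 1.34 (adjusted p = 0.00166, limma), and was 0.31 without WT replicate 1 (adjusted p = 0.426, limma). The other 3 probe sets went the same way at day 15, also without overlap and without passing. The second read 587 and 536 in KO cells and 229.9 and 447 in WT cells, a difference of 0.81 (SE 0.27, adjusted p = 0.0754) in limma. The third read 327 and 278 in KO cells and 104 and 232 in WT cells, a difference of 0.96 (SE 0.29, adjusted p = 0.0549) in limma. The dimmest had the smallest difference of the 4, 0.37 (SE 0.21, adjusted p = 0.310) in limma. All 4 share a gene and are not independent measurements. At day 8 the brightest read 699.7 and 549.5 in KO cells and 433 and 509 in WT cells, a separation in the same direction with a difference of 0.40 (SE 0.27, adjusted p = 0.564) in limma. At day 0 it read 167 and 178 in KO cells and 156 and 127 in WT cells. By rank *Flt1* stood at percentiles of 61.1, 89.7 and 90.1 at days 0, 8 and 15 in KO cells and of 56.4, 86.3 and 82.9 in WT cells, so the transcript stood higher at the later days in cells of either genotype.

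*Tek* encodes TIE2, the angiopoietin receptor. At day 15 it read 67.0 and 80.6 in KO cells, against 536 and 279.8 in WT cells. The WT arrays were far above both KO arrays, replicate 1 most of all, and the difference of -2.40 (SE 0.44, adjusted p = 0.00807) was among the members the farthest from 0 in limma. With an array of day 15 left out, this difference stayed between -2.87 and -1.93, but the call was not always kept. At day 8 the WT arrays lay on either side of the KO arrays, at 89.9 and 89.6 in KO cells and 55.6 and 156 in WT cells, and the difference was -0.05 (SE 0.44, adjusted p = 0.977) in limma. Leaving out WT replicate 2 of day 8, the array with the high globin and collagen, gave 0.69, and leaving out replicate 1 gave -0.79, so no direction can be read at day 8. At day 0 *Tek* was 195 and 239.7 in KO cells and 129 and 173 in WT cells. Its percentile was 66.3, 61.9 and 57.5 at days 0, 8 and 15 in KO cells and 57.9, 61.3 and 84.1 in WT cells, and so stood out only on the WT arrays of day 15.

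*Tie1* encodes the partner of TIE2, which binds no angiopoietin by itself. It read 13.2 and 15.9 at day 15 in KO cells, against 30.6 and 25.9 in WT cells. The groups were apart although every one of these values lies below its array's median, and the difference was -0.96 (SE 0.16, adjusted p = 0.00323) in limma. With 32 added to each intensity before the log, which damps differences between low values, it was -0.37 (adjusted p = 0.00506, limma). At day 8 the groups overlapped, with 14.5 and 17.1 in KO cells and 15.4 and 18.6 in WT cells. They overlapped at day 0 too, with 36.3 and 39.7 in KO cells and 45.2 and 39.5 in WT cells.

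*Eng* encodes endoglin, a co-receptor for BMP9 and TGF-β that is abundant on growing endothelium. At day 15 it read 187 and 178 in KO cells and 197 and 187 in WT cells. The groups overlapped and the difference was -0.07 (SE 0.12, adjusted p = 0.793) in limma. At day 8 its direction was the other way, with 189.8 and 185 in KO cells and 126 and 134 in WT cells, both KO arrays above both WT arrays. That difference of 0.53 (SE 0.12, adjusted p = 0.0686) did not pass limma's threshold. The second probe set had 88.5 and 74.0 in KO cells and 55.6 and 65.9 in WT cells at day 8, a difference of 0.42 (SE 0.15, adjusted p = 0.224), and -0.09 (SE 0.15, adjusted p = 0.762) at day 15, both in limma. At day 0 the brighter probe set read 339 and 387 in KO cells and 328 and 293 in WT cells, again with the KO arrays above the WT arrays.

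*Cdh5* encodes VE-cadherin, the adhesion molecule of endothelial contacts and a defining marker of endothelium. It read 49.0 and 38.9 in KO cells at day 15, against 108 and 136 in WT cells. The groups were well apart and the difference of -1.47 (SE 0.17, adjusted p = 4.05e-04) had the smallest adjusted p of the members in limma. At day 8 both KO arrays, at 33.4 and 35.5, were below both WT arrays, at 54.4 and 62.3, and the difference of -0.76 (SE 0.17, adjusted p = 0.0563) lay just outside limma's threshold. With an array of day 8 left out, this difference ran from -0.85 to -0.66. At day 0 the KO arrays read 49.9 and 61.2 and the WT arrays 47.5 and 51.3, with overlap. By rank, the probe set stood at percentiles of 24.6, 39.5 and 45.4 at days 0, 8 and 15 in KO cells and of 21.8, 52.9 and 66.7 in WT cells. The second probe set showed no such difference. It read 14.2 and 18.1 in KO cells and 14.3 and 16.0 in WT cells at day 15, values under the lower quartile of those arrays, with a difference of 0.08 (SE 0.18, adjusted p = 0.824) in limma. As a mean over both probe sets the day 15 difference was -0.69 (adjusted p = 0.00210, limma).

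*Cldn5* encodes claudin 5, the main tight junction protein of endothelium. It read 39.9 and 43.7 in KO cells at day 15, against 87.0 and 129 in WT cells. The groups were apart, by -1.34 (SE 0.17, adjusted p = 7.64e-04) in limma. At day 8 it read 40.0 and 35.8 in KO cells and 50.9 and 56.1 in WT cells, apart in the same direction, with a difference of -0.50 (SE 0.17, adjusted p = 0.206) that did not pass. *Esam*, an adhesion molecule of endothelial tight junctions that platelets also carry, read 91.2 and 73.3 in KO cells at day 15, against 161 and 138 in WT cells. Both KO arrays were below both WT arrays and the difference was -0.86 (SE 0.14, adjusted p = 0.00282) in limma. At day 0, where both genes were slightly lower without overlap, *Cldn5* read 106 and 104 in KO cells and 108 and 108 in WT cells, and *Esam* read 131 and 138 in KO cells and 157 and 144 in WT cells. At day 8 *Esam* read 78.2 and 83.7 in KO cells and 87.3 and 86.9 in WT cells, apart but only by -0.11 (SE 0.14, adjusted p = 0.793) in limma.

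*Pecam1* encodes CD31, an adhesion molecule of endothelium, platelets and undifferentiated ES cells. At day 15 it read 19.3 and 19.4 in KO cells, against 26.2 and 20.6 in WT cells. The KO arrays were below the WT arrays by a small margin and the difference of -0.26 (SE 0.15, adjusted p = 0.301) did not pass limma's threshold. At day 0 it read 158 and 181 in KO cells and 149 and 172 in WT cells, and its percentile was 60.5, 27.0 and 23.7 at days 0, 8 and 15 in KO cells and 59.9, 30.0 and 29.3 in WT cells. It stood lower at the later days in both genotypes, below the median of every array. *Emcn* encodes endomucin, a sialomucin of capillary and venous endothelium. It read 11.2 and 14.1 in KO cells at day 15, against 21.8 and 35.7 in WT cells. These are low values with no overlap, and the difference was -1.15 (SE 0.23, adjusted p = 0.00851) in limma, or -0.43 with 32 added to each intensity (adjusted p = 0.0118, limma). With an array of day 15 left out, the difference without the added 32 stayed between -1.50 and -0.79, but the call was not always kept. At day 8 the groups overlapped, with 8.26 and 10.8 in KO cells and 10.6 and 12.7 in WT cells, and at day 0 it read 23.2 and 21.1 in KO cells and 21.4 and 17.9 in WT cells.

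**Figure D2:**
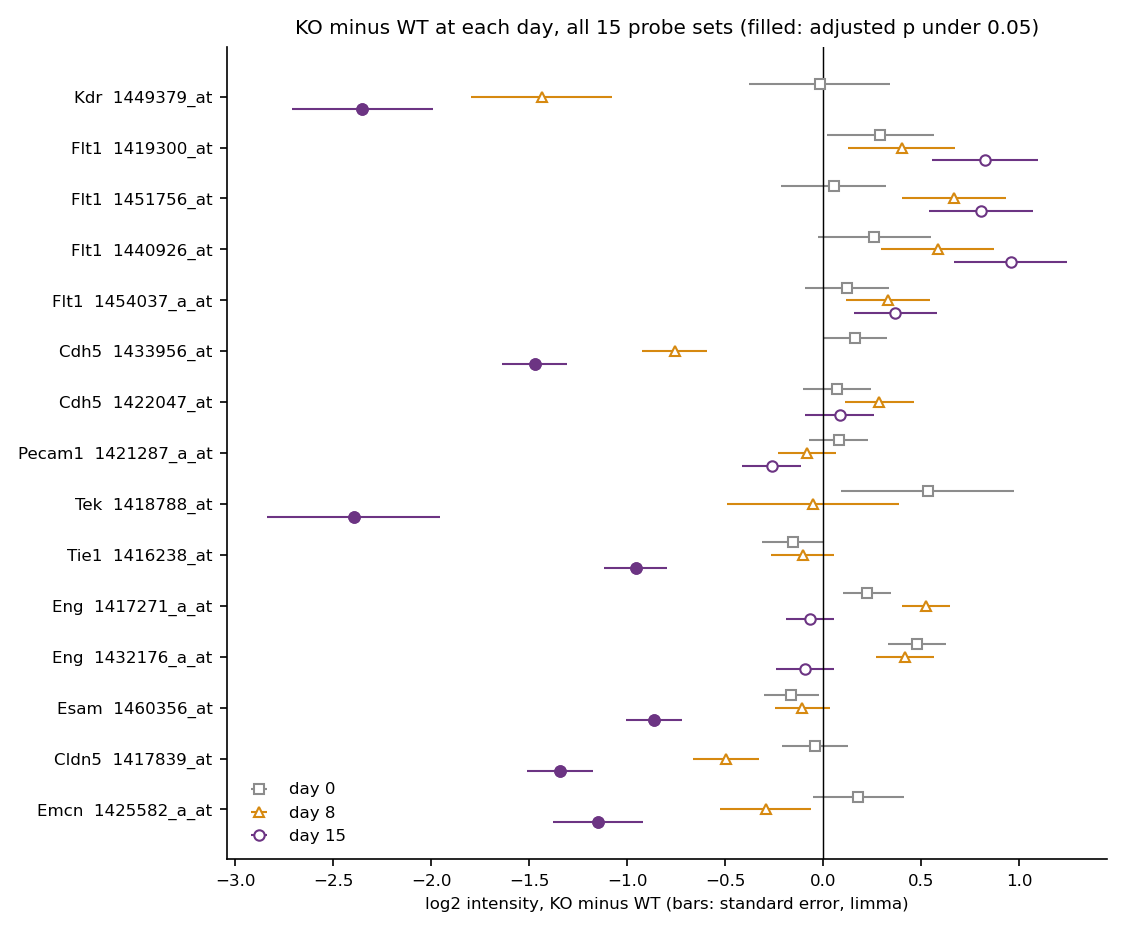
Log2 difference in intensity, KO minus WT, of all 15 probe sets of the 10 genes at day 0 (squares), day 8 (triangles) and day 15 (circles); bars are standard errors and filled points have an adjusted p under 0.05 in limma. Filled points are found at day 15 only and all lie below 0, between -2.40 for *Tek* and -0.86 for *Esam*; the 4 *Flt1* probe sets lie above 0.

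No member passed limma's threshold between KO and WT cells at day 8 or at day 0. At day 8 the count was 0 of 10, with 4 at an unadjusted p under 0.05 and 3 by the methods' t-test unadjusted, and 0.77% of all genes were called in each direction. Of all 45037 probe sets, 6254 had an unadjusted p under 0.05 at day 8 in limma and 3864 by the methods' t-test. Markers of other cell types stood beside these values: the summed intensity of 14 blood and macrophage genes was 910.9 to 951.6 in KO cells and 848 to 2241 in WT cells, and that of 10 fibroblast genes was 3546 to 3665 in KO cells and 6472 to 26230 in WT cells, the higher WT values being those of replicate 2. The groups did not overlap for 4 members lower in KO cells (*Kdr*, *Cdh5*, *Esam* and *Cldn5*) and for 2 higher (*Flt1* and *Eng*), against 18.5% of all genes lower and 27.2% higher. At day 0 the count was 0 of 10 with 0 at an unadjusted p under 0.05, and 0.011% of all genes were called lower and 0.022% higher. There, 3870 of all probe sets had an unadjusted p under 0.05 in limma. At that day *Flt1*, *Tek* and *Eng* were higher without overlap and *Esam* and *Cldn5* lower, where 31.2% of all genes were separated upward and 17.5% downward.

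Between days 8 and 15, 7 members rose in WT cells and none passed in KO cells. On their brightest probe sets the risers were *Tek*, *Emcn*, *Cdh5*, *Cldn5*, *Esam*, *Tie1* and *Eng*. For these 7 both day 15 arrays lay above both day 8 arrays, as they did for 28.6% of all genes. In WT cells 9.66% of all genes were higher at day 15 and 11.3% were lower, and the median change of the 10 members was 0.75 on the log2 scale, against 0.01 for all genes. In KO cells the median change of the members was -0.01, and the count of 0 stands beside 0 members at an unadjusted p under 0.05, 0 by the methods' t-test after adjustment, and 0.0275% of all genes called higher and 0% lower. Of all 45037 probe sets, 4847 had an unadjusted p under 0.05 for the change in KO cells in limma. Other cell types changed between the same WT arrays: 7 of 14 blood and macrophage genes were higher at day 15 and 1 lower (median 2.00), 6 of 10 fibroblast genes were higher (median 2.05) and 9 of 10 pluripotency genes were lower (median -2.09), and their part in the endothelial changes was not tested. In KO cells 0 genes of these lists passed in limma, where 1 blood and macrophage gene, 6 fibroblast genes and 0 pluripotency genes had an unadjusted p under 0.05, and the medians were 0.15, 1.45 and -0.38 in that order. Fitted on the 4 WT arrays alone, 0 of the 7 passed, with adjusted p from 0.0753 for *Cdh5* in limma. The changes in WT cells and KO cells come from the same day 8 and day 15 arrays as the comparisons between genotypes, so they are not separate evidence.

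*Tek* changed most in WT cells, by 2.06 (SE 0.44, adjusted p = 0.0130) in limma, and by -0.29 (SE 0.44, adjusted p = 0.875) in KO cells. Its change in WT cells depended on single arrays: it was 1.32 without replicate 1 of day 8 and 2.80 without replicate 2. Without replicate 1 of day 15 it was 1.59, and the call was lost. *Emcn* changed by 1.27 (SE 0.23, adjusted p = 0.00413) in WT cells and by 0.41 (SE 0.23, adjusted p = 0.558) in KO cells. With 32 added to each intensity the WT changes of *Emcn* and *Tie1* were 0.47 and 0.30, and both passed (adjusted p = 0.00661 and 0.0123, limma). *Cdh5* changed by 1.06 (SE 0.17, adjusted p = 0.00185) in WT cells, or by 0.70 as a mean over both its probe sets, and by 0.34 (SE 0.17, adjusted p = 0.489) in KO cells, where its day 15 arrays were above its day 8 arrays. *Cldn5* changed by 0.99 (SE 0.17, adjusted p = 0.00294) in WT cells and by 0.14 (SE 0.17, adjusted p = 0.829) in KO cells. The angiopoietin receptor and the junction cadherin and claudin were thus all among the risers. Of the others, *Esam* rose by 0.77, *Tie1* by 0.73 and *Eng* by 0.56 on the log2 scale (adjusted p = 0.00400, 0.00991 and 0.00982, limma). The second *Eng* probe set changed by 0.20 (SE 0.15, adjusted p = 0.430) in limma, with overlap between the days. With an array left out, the changes ran from 0.60 to 0.87 for *Tie1* and from 0.51 to 0.60 for *Eng* on its brighter probe set. Neither call was always kept. *Eng*, on its brighter probe set, was the member that was higher in WT cells at day 15 than at day 8 without being lower in KO cells at day 15. *Kdr* was the reverse: it was lower in KO cells at day 15 while its change in WT cells, 0.60 (SE 0.36, adjusted p = 0.330), did not pass in limma, its WT level being high at day 8 already. *Flt1* changed by -0.41 (SE 0.27, adjusted p = 0.383) in WT cells and *Pecam1* by 0.01 (SE 0.15, adjusted p = 0.979). Without WT replicate 2 of day 15 the change of *Kdr* passed at 1.14 (adjusted p = 0.0413, limma) and that of *Flt1* at -0.93 (adjusted p = 0.00912, limma). Without WT replicate 1 of day 15 these changes were 0.05 and 0.11 (adjusted p = 0.964 and 0.842, limma), so they rested on which WT array was kept. In KO cells the groups did not overlap for *Cdh5* and *Emcn*, higher at day 15, and for *Kdr*, *Tek* and *Pecam1*, lower at day 15, where 24.2% and 26.6% of all genes were separated upward and downward.

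The difference between genotypes in this change was tested as an interaction and no member passed, with 7 of 10 at an unadjusted p under 0.05. Over all genes 0.434% passed with a lower change in KO cells than in WT cells and 0.225% with a higher one. Of all 45037 probe sets, 5425 had an unadjusted p under 0.05 in this limma test. The estimates were -2.34 (SE 0.62, adjusted p = 0.181) for *Tek*, -0.85 (SE 0.23, adjusted p = 0.157) for *Tie1* and -0.76 (SE 0.20, adjusted p = 0.153) for *Esam* in limma. With an array left out, the interaction ran from -3.09 to -1.60 for *Tek* and from -1.13 to -0.56 for *Cldn5*. The call in WT cells and its absence in KO cells therefore do not show, for a single gene, that the changes differed.

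**Figure D3:**
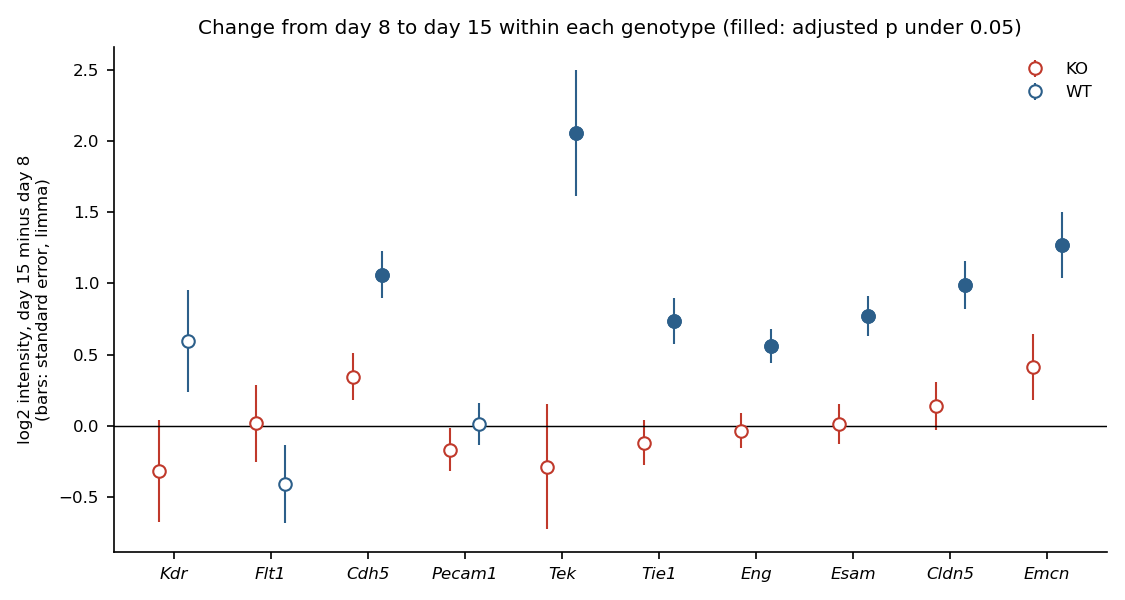
Log2 change in intensity, day 15 minus day 8, of the 10 genes in KO cells and in WT cells; bars are standard errors and filled points have an adjusted p under 0.05 in limma. Filled points are found in WT cells only, from 0.56 for *Eng* to 2.06 for *Tek*, while the KO changes lie between -0.32 for *Kdr* and 0.41 for *Emcn*.

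Other genes of vessels were read from 4 lists holding 58 measured genes, of which 21 were lower and 4 higher in KO cells at day 15. The shares over all genes were 8.31% lower and 8.77% higher. In the list of other endothelial surface and secreted genes, 12 of 23 were lower and 2 higher, with a median difference of -0.83. *Cd34*, a sialomucin of capillaries and progenitors, read 24.9 and 30.9 in KO cells and 89.7 and 88.4 in WT cells at day 15, a difference of -1.68 (SE 0.21, adjusted p = 7.36e-04) in limma. *Cd93* differed by -1.59, *Gpihbp1*, which anchors lipoprotein lipase in capillaries, by -1.27, and the hyaluronan receptors *Lyve1* and *Stab2*, of lymphatic and sinusoidal endothelium, by -1.49 and -1.30. The interaction passed for 3 genes of the list, *Gpihbp1* at -1.31 (SE 0.23, adjusted p = 0.0360), *Stab2* at -1.41 (SE 0.23, adjusted p = 0.0312) and *Lyve1* at -1.43 (SE 0.26, adjusted p = 0.0429) in limma. Among all genes 0.434% passed in that direction. At day 15 *Lyve1* read 21.1 and 18.8 in KO cells and 67.9 and 46.0 in WT cells, while at day 8 it read 17.9 and 20.9 in KO cells and 19.1 and 21.3 in WT cells. Between days 8 and 15, 13 of the 23 genes rose in WT cells and 0 passed in KO cells, where 5 had an unadjusted p under 0.05. Among all genes 9.66% rose in WT cells and 0.0275% in KO cells. For the change in KO cells, 4847 of all 45037 probe sets had an unadjusted p under 0.05 in limma. The 2 that were higher in KO cells, named after their values were seen, were *Jam2* at 2.17 and *Mcam* at 0.81 (adjusted p = 0.0118 and 0.0353, limma). *Jam2* was also high in undifferentiated cells of day 0, at 1128 and 2474 in KO cells and 957 and 954 in WT cells. The array medians of that day were 113.6 to 117.0.

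**Figure D4:**
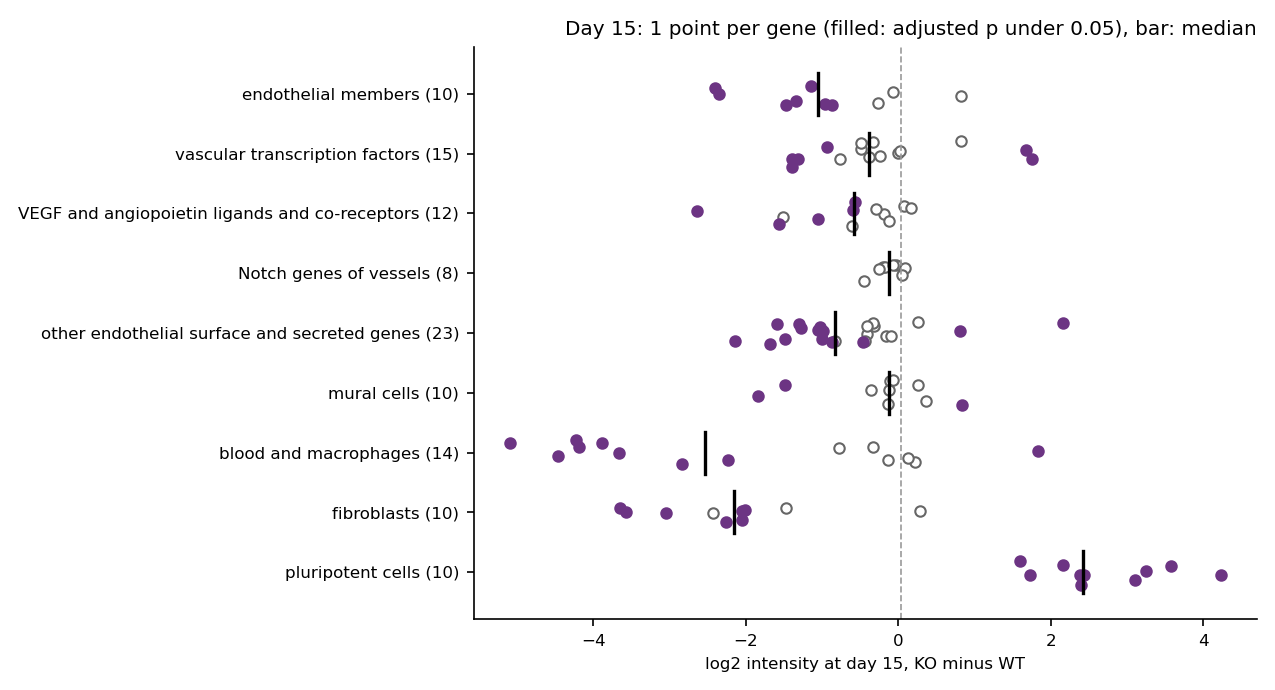
Log2 difference in intensity at day 15, KO minus WT, of every measured gene in 9 lists (list sizes in brackets); filled points have an adjusted p under 0.05 in limma, bars are list medians and the dashed line is the median of all genes. The medians run from -2.53 for blood and macrophage genes to 2.42 for pluripotency genes, with the 10 endothelial genes at -1.05.

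Of the upstream regulators, 4 of 15 vascular transcription factors were lower in KO cells at day 15 and 2 were higher, with a median of -0.39. The shares over all genes were 8.31% lower and 8.77% higher. *Sox18*, a regulator of endothelial and lymphatic identity, read 32.6 and 47.1 in KO cells and 87.2 and 109 in WT cells, a difference of -1.31 (SE 0.18, adjusted p = 0.00133) in limma. *Nr2f2*, which specifies veins, differed by -1.39 (SE 0.32, adjusted p = 0.0209) and the ETS factor *Fli1* by -0.93 (SE 0.19, adjusted p = 0.00976), both in limma. *Hhex*, a homeobox gene of early endothelium and of endoderm, was higher, at 311 and 338 in KO cells and 96.3 and 94.9 in WT cells, a difference of 1.76 (SE 0.13, adjusted p = 6.24e-05) in limma. It was higher at day 8 as well, at 301 and 318 in KO cells and 142 and 122 in WT cells (difference 1.24, adjusted p = 0.00445, limma). *Klf2*, which responds to blood flow in endothelium and is also expressed in undifferentiated ES cells, was higher at both days, by 1.55 at day 8 and 1.68 at day 15 (adjusted p = 0.0107 and 8.81e-04, limma). The differences of *Etv2*, *Tal1* and *Erg*, which act early in endothelial and blood formation, were 0.03, -0.49 and -0.01 at day 15 and did not pass in limma. *Etv2* at day 8 read 146 and 118 in KO cells and 374 and 122 in WT cells, where WT replicate 1, the array with the higher *Kdr*, stood above all others.

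Among ligands and co-receptors 5 of 12 were lower at day 15 and 0 were higher, with a median of -0.58, against 8.31% and 8.77% of all genes. *Vegfa*, the ligand of *Kdr* and *Flt1*, read 183 and 201 in KO cells and 263 and 307 in WT cells, a difference of -0.57 (SE 0.14, adjusted p = 0.0191) in limma. *Angpt1*, the activating ligand of TIE2, read 41.8 and 67.0 in KO cells and 514 and 210.2 in WT cells, a difference of -2.63 (SE 0.59, adjusted p = 0.0209) in limma. In WT cells replicate 1 was above replicate 2 for *Angpt1*, as it was for its receptor *Tek*. The lymphatic ligands *Vegfc* and *Vegfd* differed by -0.59 and -1.05, and the co-receptor *Nrp2* by -1.56. At day 8 *Vegfc* differed by -0.86 and the apelin receptor *Aplnr*, named after its values were seen, by -1.50 (adjusted p = 0.0173 and 0.0230, limma). Of the 8 Notch genes of vessels 0 passed and 1 had an unadjusted p under 0.05, with a median of -0.12. Of all 45037 probe sets, 11823 had an unadjusted p under 0.05 at day 15 in limma.

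Markers of other cell types moved at day 15 too, and their part in the endothelial differences was not tested. The counts below stand beside 8.31% of all genes lower and 8.77% higher. The summed intensity of 14 blood and macrophage genes was 1016 to 1053 in KO cells and 4329 to 8939 in WT cells, with 8 genes lower and 1 (*Myb*) higher. *Ptprc*, the pan-leukocyte gene, read 15.9 and 14.1 in KO cells and 186 and 61.4 in WT cells, and the globin *Hbb-bh1* read 29.7 and 22.9 in KO cells and 873 and 909.7 in WT cells. The sum of 10 fibroblast genes was 10600 to 15550 in KO cells and 56280 to 75050 in WT cells, with 7 lower. The sum of 10 pluripotency genes was 18260 to 19530 in KO cells and 2350 to 7163 in WT cells, with all 10 higher. *Pou5f1*, which encodes Oct4, read 2259 and 1909 in KO cells and 108 and 281 in WT cells. Of 10 mural cell genes, which mark the pericytes and smooth muscle around vessels, 2 were lower and 1 higher: *Pdgfrb* at -1.84, *Kcnj8* at -1.48 and *Notch3* at 0.84. Their summed intensity was 15420 to 17590 in KO cells and 16490 to 16610 in WT cells, most of it from *Acta2* and *Tagln*. *Acta2* read 8367 and 10121 in KO cells and 9935 and 10049 in WT cells. *Tagln* read 4418 and 4720 in KO cells and 3310 and 3787 in WT cells. The sum therefore says little about the dimmer *Pdgfrb* and *Kcnj8*. No marker of these lists was listed at 0 on any array. Nor was any other probe set, so this does not show that the markers were detected.

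Over the 8 arrays of days 8 and 15, the pattern of *Cdh5* was most like that of *Kcnq5*, a potassium channel (Pearson r = 0.996), *Reck*, a membrane inhibitor of metalloproteinases (0.985), *Fut11*, a fucosyltransferase (0.982), *Pccb*, a mitochondrial carboxylase subunit (0.979), and *Gata4*, a transcription factor of heart and endoderm (0.974), out of 11601 genes, those with a mean intensity above the median of all probe sets together with the members. *Tie1*, *Emcn* and *Pecam1* lay below that median and were ranked as members only. The points share the 4 groups, so r mostly records how the group means line up. Among the members *Cldn5* came at rank 11 (r = 0.967), *Esam* at rank 241, *Emcn* at 342, *Tie1* at 815, *Tek* at 1245 and *Kdr* at 1735. *Pecam1* came at 4045, *Eng* at 5122 and *Flt1* at 8776, with r = -0.653. Among the members, the junction genes *Cldn5* and *Esam* ranked nearest to *Cdh5*, while the adhesion gene *Pecam1* ranked far lower and *Flt1* last. Many genes outside the set ranked above *Esam*.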

How the data were processed

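The deposited values are linear intensities, 1 per probe set and array, which the authors obtained with the software of CapitalBio; MAS5 is the tool that the submitters' processing notes give, without a version. Detection calls were not used here, so whether a dim probe set lies above background was not determined. Arrays carry no read depth, and the 2 arrays per group limit the precision.

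Of 45101 probe sets, 64 manufacturer controls were left out. Log2 intensities (values under 1 would be set to 1, and 0 were) entered a single limma fit of all 12 arrays (limma 3.58.1, run in R 4.3.3 together with statmod 1.5.0), which had a mean for each group, allowed for an intensity trend, used robust moderation and left the replicate number out. Tests were two-sided. The scripts were tested on simulated data. The methods' t-test, from the paper's general statistics and run unpaired on the same log2 values, was an alternative. Other scalings, filters and left-out arrays were alternatives too. Promoter motifs, tables and figures were made in Python 3.11.15 with matplotlib 3.10.9, numpy 2.4.6 and pandas 2.3.3.

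The members and lists were chosen with earlier results of these data known. Named genes are all members, up to 5 genes per list with the smallest adjusted p at day 15, a few markers of cell type, and the 5 genes most like *Cdh5*. The ligand listed as *Figf* was measured under its current symbol, *Vegfd*.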

Additional observations from a re-analysis of the deposited data

Results flagged for a closer look

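The change between days 8 and 15 differed between KO and WT cells in the interaction test for 5 genes of the lists beside the 10 endothelial genes, and for none of the 10. Among all genes 0.434% passed with a lower change in KO cells and 0.225% with a higher one. Those from the list of other endothelial surface and secreted genes were *Lyve1* at -1.43 (SE 0.26, adjusted p = 0.0429), *Stab2* at -1.41 (SE 0.23, adjusted p = 0.0312) and *Gpihbp1* at -1.31 (SE 0.23, adjusted p = 0.0360) (limma), each with both KO arrays below both WT arrays at day 15. The macrophage gene *Tyrobp* differed by -4.36 (SE 0.59, adjusted p = 0.0227), at 28.6 and 27.4 in KO cells and 1082 and 354 in WT cells at day 15 (limma). The pluripotency gene *Tdgf1* differed by 3.90 (SE 0.58, adjusted p = 0.0328), at 3438 and 2678 in KO cells and 97.1 and 266 in WT cells at day 15 (limma).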

How the results depend on the processing

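The count of 7 endothelial genes lower in KO cells at day 15 was kept or stayed within 1.5 times under other scalings, moderation and probe set summaries, and with only the day 15 arrays. It was 4 with the brighter probe sets alone, which keep 6 of the 10 genes and drop *Cdh5*, *Pecam1*, *Tie1* and *Emcn*, and 0 by the methods' t-test after Benjamini-Hochberg, by which 0 of all probe sets passed and 6541 had an unadjusted p under 0.05. Leaving out 1 array gave 5 to 8 called, of which 5 to 7 were lower and, without WT replicate 2 of day 15, 1 (*Flt1*) was higher. The count of 7 higher at day 15 than day 8 in WT cells was 4 with the brighter probe sets, 0 with only the arrays compared, 3 by the methods' t-test unadjusted and 0 after adjustment, and 4 to 9 with an array left out: 4 without WT replicate 1 of day 15, all higher, and 9 without replicate 2, of which 8 were higher and 1 (*Flt1*) lower. The count at day 8 was 1 (*Cdh5*, lower) after quantile normalization, 3 by the methods' t-test unadjusted, and 0 to 1 with an array left out. The interaction count was 0 to 1 with an array left out. By the methods' t-test unadjusted, 3864 of all probe sets had a p under 0.05 at day 8 and 4770 for the change in WT cells. Why these counts moved was not tested, other than the fewer genes or arrays named.

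Of 836 values of single members under alternatives, 767 kept their direction and side of the threshold, 34 no longer passed, 10 newly passed and 25 changed sign, none of the last where the reported value passed. In KO cells the change of *Esam* was -0.00078 after quantile normalization and -0.0090 after centring, and that of *Flt1* -0.0083 after centring and -0.045 as a mean over its probe sets. In WT cells the change of *Pecam1* was -0.042 and -0.034. With an array left out, the ranges that crossed 0 were, for KO minus WT, -0.20 to 0.16 for *Kdr* and -0.023 to 0.18 for *Pecam1* at day 0, and -0.17 to 0.00028 for *Pecam1*, -0.79 to 0.69 for *Tek* and -0.24 to 0.0305 for *Tie1* at day 8. For the change in WT cells they were -0.16 to 0.18 for *Pecam1* and -0.93 to 0.11 for *Flt1*. For the change in KO cells they were -0.14 to 0.17 for *Esam*, -0.16 to 0.19 for *Flt1*, -0.25 to 0.012 for *Tie1* and -0.070 to 0.0014 for *Eng*, and for the interaction -0.091 to 0.94 for *Flt1*.

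The deviations of arrays with the same replicate number correlated between -0.0677 and 0.131. The labels do not say whether the number also stands for a line or a batch, and this was not tested. With the replicate number as a block, the members called stayed 7 at day 15, 7 for the change in WT cells and 0 elsewhere, and over all probe sets the count went to 5590 with the block, against 5807 without it, at day 15. At day 0 it was 3 with the block and 22 without it.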

Other observations

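Macrophage genes set the pair of WT arrays at day 15 apart from each other, with replicate 1 the higher, as for *Tek* and *Kdr*. *Tie1*, *Eng*, *Esam* and *Pecam1* also read higher on replicate 1, whereas *Cdh5*, *Cldn5*, *Emcn* and *Flt1* read higher on replicate 2. *Tyrobp* read 28.6 and 27.4 in KO cells at day 15 and 1082 and 354 on WT replicates 1 and 2, and *Fcer1g* read 36.9 and 39.9 in KO cells and 1139 and 282 on the same WT arrays. *Stab1*, a scavenger receptor that sinusoidal endothelium and macrophages both carry, read 29.9 and 27.4 in KO cells and 273 and 58.3 in WT cells. *Stab2*, its endothelial relative, read 42.1 and 34.0 in KO cells and 92.5 and 93.7 in WT cells, so the WT arrays lay close together for *Stab2* and far apart for *Stab1*. *Lyve1* read 67.9 and 46.0 on WT replicates 1 and 2, the higher on replicate 1, and which cells its RNA came from was not tested. These genes were chosen after their values were seen, and no test was run between replicates.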
